A study of Mus musculus with 4 samples.

Results

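Cardiomyocytes were taken from the heart grafts by the share of their transcripts that came from contractile genes, with no limit on mitochondrial transcripts. A cell counted as a cardiomyocyte when it had over 200 detected genes, when Myh6, Tnnt2, Actc1, Myl2 and Tnni3 together made up 4% or more of its unique molecular identifiers (UMIs) from genes other than those of the mitochondrial genome, and when it held at least 3 Tnnt2 UMIs. These 5 genes are called the rule genes. The rule found 1085 cardiomyocytes among 53658 cells with over 200 genes, or 2.02% (exact 95% interval 1.91 to 2.15). Of them, 688 had under 20% mitochondrial UMIs, the limit above which the study left cells out, and 397 had 20% or more, which was 36.6% of the cardiomyocytes (33.7 to 39.5). The 397 cells above that limit are described here beside the 688.

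The cells came from 4 heterotopic heart grafts, in which a donor heart was placed in the abdomen of a C57BL/6J recipient, and were collected on day 5 after transplantation. There were 2 allogeneic grafts, with BALB/c donor hearts, and 2 syngeneic grafts, with C57BL/6J donor hearts. All mice were male and 8 to 10 weeks old, and neither the labels nor the methods name a genetic change or a drug treatment. The tissue was dissociated with enzymes, and whole cells were sequenced from the 3' end of their transcripts, so a level counts molecules and does not grow with gene length.

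The deposited matrix holds 53824 cells of all grafts together, and a number from 1 to 4 at the end of each barcode divides them into 4 libraries. No source used here pairs a library with a graft. The 4 sets are named libraries 1 to 4 and cannot serve as replicates of any treatment, and allogeneic and syngeneic cardiomyocytes were not compared. The cells were treated as 1 pooled sample, with values given by library beside the pooled ones, and no test was made. Libraries 1 to 4 held 13112, 13907, 13500 and 13305 cells, with 96020294, 115162601, 138892048 and 166079145 UMIs.

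A cardiomyocyte contracts when calcium enters through membrane channels and releases more calcium from the sarcoplasmic reticulum through the ryanodine receptor, Ryr2. The calcium binds troponin on the thin filament and lets myosin heads pull on it, and the pump encoded by Atp2a2 then returns the calcium to its store, under the brake of phospholamban, Pln. The energy comes mostly from fatty acids burned in densely packed mitochondria, so adult cardiomyocytes are rich in mitochondrial transcripts, and the long rod-shaped cells are easily damaged when a heart is dissociated.

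The label was checked against 13 cardiomyocyte markers, of which 8 were not among the rule genes. Over these 8, which the rule did not use, the median cardiomyocyte held a UMI of 6, against 1 in the median endothelial cell and 0 in the median granulocyte and T or NK cell. In the class of 20% or more mitochondrial UMIs the median was 5 of 8. Over all 13 the median was 11, which the rule fixed in part. Among markers that the rule did not use, Mb (myoglobin) was found in 99.3% of cardiomyocytes, Pln in 96.8%, Fabp3 (the heart fatty acid binding protein) in 96.5%, Ckm (muscle creatine kinase) in 74.6%, Ttn (titin) in 49.7% and Ryr2 in 12.7%. In endothelial cells, which should lack these transcripts, the shares were 28.9% for Mb, 17.05% for Pln, 17.8% for Fabp3, 7.63% for Ckm, 9.62% for Ttn and 1.91% for Ryr2. The cardiomyocytes were also the shallower cells, since the median cardiomyocyte held 1237 UMIs from genes of the nuclear genome and the median other cell 5171. A Tnnt2 UMI was also found in 29.8% of endothelial cells (29.2 to 30.5), whose median depth was 5028 UMIs, and in 12.6% of granulocytes, whose median depth was 3597.5. In endothelial cells, however, the rule genes summed to 0.0347% of the UMIs, so the share of 4% lay far above the level in cells that should lack these genes.

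The libraries contributed unequally. Library 1 held 907 cardiomyocytes (6.99% of its cells, 6.56 to 7.44), library 2 held 21 (0.151%, 0.0935 to 0.231), library 3 held 145 (1.08%, 0.909 to 1.27) and library 4 held 12 (0.0902%, 0.0466 to 0.158). Library 1 also gave 83.9% of the 2265063 nuclear-genome UMIs of the cardiomyocytes, and library 3 gave 13.2%, so every pooled value below rests mostly on library 1.

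The 12 cells of library 4 stood apart from the label. All 12 carried Tnnt2, which alone made up 92.8% of their rule-gene UMIs, against 27.2%, 31.5% and 35.2% in libraries 1 to 3. Actc1 (cardiac alpha-actin) and Ckm were each found in 8.33% of them, which is 1 cell of 12, and Mb in 58.3%. Over the 8 markers outside the rule their median was 3. Other sarcomere genes were high in them, with the sarcomere list at 11.3% of UMIs against 5.94%, 5.78% and 7.0% in libraries 1 to 3, and Tcap, which anchors titin at the Z-disc, at 15721 CPM against 5964, 1295 and 3037. Their markers thus went both ways, and they are called the cells of library 4 below. They remain in the pooled counts, of which they make up 0.663% of the UMIs.

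Of all 53824 deposited cells, 616 shared their barcode sequence with a cell of another library, among them 12 cardiomyocytes and a single pair of cardiomyocytes in libraries 1 and 3. Doublets were marked by simulation and kept. They came to 12 cardiomyocytes, or 1.11%, all in library 1, and leaving them out left 1073 cells with 36.8% of them at 20% or more mitochondrial UMIs. The cut at 4% fell on a slope and not in a gap, with 300 cells at 3 to 4% rule genes, 331 at 4 to 5% and 54 at 8% or more. Mb stood at 8822 CPM (UMIs per 1000000 UMIs of nuclear-genome genes) just below the cut and at 11268 just above it, while the endothelial transcript Fabp4 fell from 3513 to 2852 and the fibroblast transcript Dcn from 1646 to 722. The Tnnt2 minimum decided little, since 14 cells had exactly 3 UMIs of it and 6 had 2. None of these threshold values is a test.

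Tnnt2 encodes cardiac troponin T, the troponin subunit that ties the complex to tropomyosin, and lies at chr1:135836354-135852260 (GRCm38). Myh6, at chr14:54941921-54966927, encodes the fast myosin heavy chain of the adult mouse heart, and Myl7, at chr11:5896637-5898782, the regulatory myosin light chain of the atria, which marks the few cells rich in atrial transcripts described further on. M-CAT elements, the letters CATTCC, are bound by TEAD factors and were first described in the troponin T promoter. The 250 bases before a transcript start that RefSeq lists on GRCm38.p6 are given 5' to 3' on the gene's own strand, with each M-CAT match on either strand in capitals. The gene positions above are those of GENCODE, whose starts differ from RefSeq's for Tnnt2 and Myh6, and the Myh6 window lies inside the GENCODE interval of the gene. RefSeq lists 2 starts for Tnnt2, and the window of the upstream one is shown. The windows are chr1:135836084-135836333 for Tnnt2 on the plus strand, chr14:54966608-54966857 for Myh6 on the minus strand and chr11:5898783-5899032 for Myl7 on the minus strand.
Tnnt2: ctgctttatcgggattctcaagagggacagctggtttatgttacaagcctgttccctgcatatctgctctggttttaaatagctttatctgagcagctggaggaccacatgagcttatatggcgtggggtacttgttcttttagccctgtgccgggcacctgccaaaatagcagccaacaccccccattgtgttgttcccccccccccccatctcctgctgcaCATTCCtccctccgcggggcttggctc
Myh6: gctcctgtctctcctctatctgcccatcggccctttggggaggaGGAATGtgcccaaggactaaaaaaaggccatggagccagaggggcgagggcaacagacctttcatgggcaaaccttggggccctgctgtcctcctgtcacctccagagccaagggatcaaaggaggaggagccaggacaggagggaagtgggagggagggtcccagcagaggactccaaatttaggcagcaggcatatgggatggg
Myl7: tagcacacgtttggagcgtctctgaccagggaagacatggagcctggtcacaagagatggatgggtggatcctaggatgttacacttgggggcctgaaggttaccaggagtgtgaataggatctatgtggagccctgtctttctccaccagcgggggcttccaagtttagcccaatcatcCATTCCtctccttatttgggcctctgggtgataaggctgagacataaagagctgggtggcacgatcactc
Counted from the RefSeq start, the Tnnt2 match began 27 bases before it, the Myl7 match 70 bases and the Myh6 match, which reads GGAATG on this strand, 206 bases. Over the 5 rule genes RefSeq gave 7 windows, of which 2 held the letters, 1 each of Myh6 and Tnnt2. Of all 32851 promoters of this length, 12.64% held them on either strand, and no search was made for bound factors.

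Mitochondrial transcripts took a median of 15.4% of the UMIs of a cardiomyocyte, against 6.68% in all other cells. In libraries 1 to 4 the medians were 15.2%, 5.32%, 18.7% and 6.46% for cells that met the rule, and 8.40%, 4.91%, 9.82% and 4.63% for the other cells of the same library. Libraries 1 and 3 were thus the high ones for both kinds of cell, and in each library the cells that met the rule had the higher median. The share of cells at 20% or more was 35.8% in library 1 (32.7 to 39.1), 4.76% in library 2 (0.121 to 23.8), 47.6% in library 3 (39.2 to 56.0) and 16.7% in library 4 (2.09 to 48.4), against 19.3%, 5.42%, 26.7% and 15.1% of the other cells. The intervals, which cover counting error only, overlapped the share of other cells in libraries 2 and 4 and lay above it in libraries 1 and 3. The limit itself set the split. At 10% mitochondrial UMIs, 68.8% of the cardiomyocytes lay above it, and at 40%, 5.25%.

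**Figure D1:**
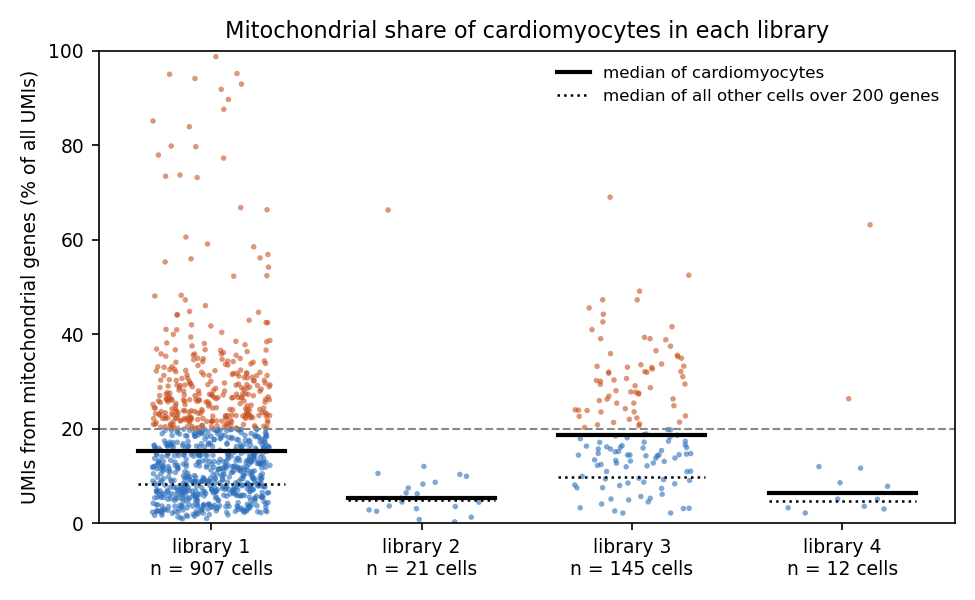
Mitochondrial UMIs as a percent of all UMIs (vertical axis) in each cell that met the cardiomyocyte rule, by library (horizontal axis), with the 20% limit dashed, the median of these cells as a solid line and the median of the other cells of the same library dotted. The solid medians of 15.2% and 18.7% in libraries 1 and 3 stand above the dotted medians of 8.40% and 9.82%, and the points run through the 20% limit without a gap.

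The cells did not fall into separate classes along the mitochondrial share. In steps of 10 percentage points they numbered 339, 349, 238, 102 and 24 up to 50%, and 33 cells lay above 50%. Depth was lower in the high class. The median cardiomyocyte held 1549.5 nuclear-genome UMIs under 20% and 868 at 20% or more, with 770 and 533 detected genes. A few deep cells carried a large part of the sums, since the 10 deepest cells gave 22.9% of all UMIs of the high-mitochondrial class and 11.1% of those of the low class. Levels from summed UMIs are therefore set beside the mean over cells, in which each cell weighs the same.

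Against all other cells under 20% mitochondrial UMIs, 1011 of 4343 genes (23.3%) were at least 2-fold higher in the cardiomyocytes and 951 (21.9%) at least 2-fold lower, with 10 CPM added to both sides of every ratio. Here the libraries were pooled and no agreement between them was asked for. Without library 1, which held 907 of the 1085 cells, 421 were higher and 130 lower. These cells were chosen for 5 of these genes, so the counts describe them and test nothing. Outside the rule genes, Mb was 252-fold higher (14104 against 46.0 CPM), Myl3, a light chain of ventricular myosin, 236-fold, and Fabp3 222-fold. Tcap was 203-fold higher, Pln 175-fold, Tnnc1, the calcium-binding troponin subunit, 164-fold, and Csrp3, a Z-disc protein, 116-fold. Muscle forms of cytochrome oxidase subunits also stood among the leading genes, with Cox6a2 at 154-fold, Cox8b at 102-fold and Cox7a1 at 101-fold.

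By function, 23 of 25 sarcomere genes were higher than in other cells, and so were 15 of 18 counted genes of calcium handling and conduction and 28 of 31 genes of fatty acid and creatine energy. The nuclear-encoded respiratory chain was higher nearly throughout, with 36 of 37 complex I genes, 25 of 27 genes of complexes II to IV and 17 of 17 genes of complex V, the ATP synthase. Glycolysis stood closer to the background in this pooled count, with 6 of 18. As a share of UMIs the glycolysis list made up 1.30%, 1.25%, 1.325% and 0.759% in cells of libraries 1 to 4 that met the rule. In the other cells of the same library it made up 0.265%, 0.670%, 0.340% and 1.21%, so only library 4 had the lower share in cells that met the rule. Lower in cardiomyocytes were 22 of 22 counted interferon and MHC class I genes, 4 of 4 MHC class II genes and 20 of 21 immediate early genes. For MHC class II this low level was shared with mural cells. The list made up 0.053% of UMIs in cardiomyocytes, 0.051% in mural cells, 0.071% in endothelial cells and 0.14% in fibroblasts. In macrophages it made up 3.0% and in B cells 2.52%. B2m, the MHC class I light chain, stood at 252.5 CPM against 2198 in other cells.

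When the cardiomyocytes of 20% or more mitochondrial UMIs were set against the rest, 203 of 4343 counted genes (4.67%) were at least 2-fold higher by summed UMIs and 2 (0.0461%) at least 2-fold lower, in the same direction in libraries 1 and 3, the only ones with at least 20 cells in both classes. By the mean over cells, 72 genes (1.66%) were higher and 21 (0.484%) lower, and 41 genes were called higher both ways, which was 20.2% of the first list and 56.9% of the second. Without the 22 cells of over 10000 UMIs the count of higher genes was 48, and without library 1 it was 64. The median of all counted genes lay at 0.03 on the log2 scale, so the scaling itself moved little. The split by mitochondrial share did not use the nuclear genes, but the cell count, the depth and the library mix moved with it. With each cell thinned at random to 500 UMIs, 1346 genes still reached the 50 UMIs over all cardiomyocytes asked of a counted gene, of which 17 (1.26%) were higher and 3 lower. Of the 203 genes, 46 could still be counted and 11 of them were higher. Among cells of at least 1000 UMIs the counts were 251 and 18, and by the mean of the ratios within libraries 1 and 3 they were 233 and 49.

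Genes of calcium handling and conduction were often called. By summed UMIs 10 of 18 were at least 2-fold higher in the high-mitochondrial class, with a list median of 1.23 on the log2 scale. By the mean over cells 4 of 18 were higher, with a median of 0.52. Of all counted genes, 4.67% were higher by sums and 1.66% by cells. Atp2a2, the calcium pump of the sarcoplasmic reticulum (chr5:122453513-122502225), stood at 716 CPM under 20% (676 to 758) and 3230 CPM above (3085 to 3380). In library 1 it was 699 and 3154 CPM, and in library 3 it was 1017 and 3631 CPM. Libraries 2 and 4, with 235 and 74.0 CPM in their low classes, had 1 and 2 cells in the high class and gave no ratio. By summed UMIs the pump was thus higher in both libraries that could be read, by 2.16 and 1.83 on the log2 scale. Over all libraries it was higher by 0.99 when each cell weighed the same. The median cell did not share this in library 3, with 53.9 CPM in the low class and 0 in the high class, against 596 and 935 in library 1. In the high class 3 cells held 28.8% of the Atp2a2 UMIs. Without the 39 cells of 20 or more Malat1 UMIs described below, the pooled ratio by sums was 0.76, under 2-fold. A list drawn up as RNAs kept in the nucleus also summed higher in the high class, from 1.14% to 2.19% of nuclear-genome UMIs. Its most abundant gene was Gm42418, at 7480 and 12852 CPM, and whether that transcript stays in the nucleus was not tested. In the 39 cells Gm42418 stood at 6466.5 CPM, against 9292 in the 1046 others. Malat1 had the opposite order there, at 21065 and 2088 CPM, so the sum is not read as nuclear RNA. At matched depth Malat1, of the same list, varied in direction. It stood at 6880 CPM under 20% and 5415 above in cells of 500 to 1000 UMIs. At 1000 to 2000 UMIs it was 2819 and 3204, and at 2000 to 5000 it was 1632 and 4213. The part of these RNAs in the calcium result was not tested. Of 3 counted, Malat1 and Neat1 were called by sums, with a list median of 1.19, and none by cells, with a median of 0.60.

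Ryr2, the calcium release channel (chr13:11553102-12106945), stood at 64.3 CPM under 20% and 307 above in library 1, and at 269.9 and 1009 in library 3. Library 3 was the higher of the pair in both classes, and a single cell gave 28.3% of all Ryr2 UMIs of the high class. Its ratio was 2.22 on the log2 scale by sums and 1.04 by cells. Casq2, which stores calcium beside the release channel, went from 34.4 to 205 CPM by sums, but came to 0.52 on the log2 scale by cells, was found after thinning to 500 UMIs in 1.2% and 1.11% of cells, and had 38.1% of its high-class UMIs in 3 cells. Hrc, a calcium-binding protein of the same store, went from 102.5 to 364 CPM by sums and came to 0.65 by cells, so neither was called by cells. Gja1, the gap junction protein that couples cells electrically, stood at 39.7 and 191 CPM, with 1.55 on the log2 scale by cells. Endothelial cells carried Gja1 at 304 CPM, above both classes, and the part of their transcripts in its values was not tested.

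Pln did not share this. The brake on the pump stood at 8175 CPM under 20% and 6818 above, a log2 ratio of -0.26 by sums and by cells alike, and it stood lower in library 1 (8759 and 7418 CPM) as well as in library 3 (5964 and 4282 CPM). Slc8a1, the sodium-calcium exchanger, was too scarce to read, at 6.52 and 5.2 CPM.

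At matched depth Atp2a2 was again the higher in the high class, by a ratio that varied with the depth. Among cells of 1000 to 2000 UMIs, 242 under 20% and 124 above, Atp2a2 stood at 755 CPM (666 to 853) and 1098 (945 to 1267). In cells of 500 to 1000 UMIs the values were 725 (582 to 892) and 925 (769.7 to 1102), with intervals that overlapped. In cells of 2000 to 5000 UMIs, where the high class held 28 cells, they were 638 and 2607. For Ryr2 the classes did not separate below 2000 UMIs, with 106 and 111 CPM at 500 to 1000 UMIs and 67.3 (42.7 to 101) and 100.3 (58.4 to 161) at 1000 to 2000. At 2000 to 5000 UMIs Ryr2 stood at 57.8 and 362 CPM. With each cell thinned at random to 500 UMIs, an Atp2a2 UMI was found in 29.2% of 669 low cells and 39.2% of 360 high cells, and a Ryr2 UMI in 3.89% and 7.78%. The thinning left out 19 low and 37 high cells of lower depth. Before thinning the Atp2a2 shares were 63.4% and 56.2%, the opposite order, and those of Ryr2 12.2% and 13.6%. Of 1000 endothelial cells thinned alike, 5.6% held an Atp2a2 UMI and 0.1% a Ryr2 UMI, which lay below both classes.

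**Figure D2:**
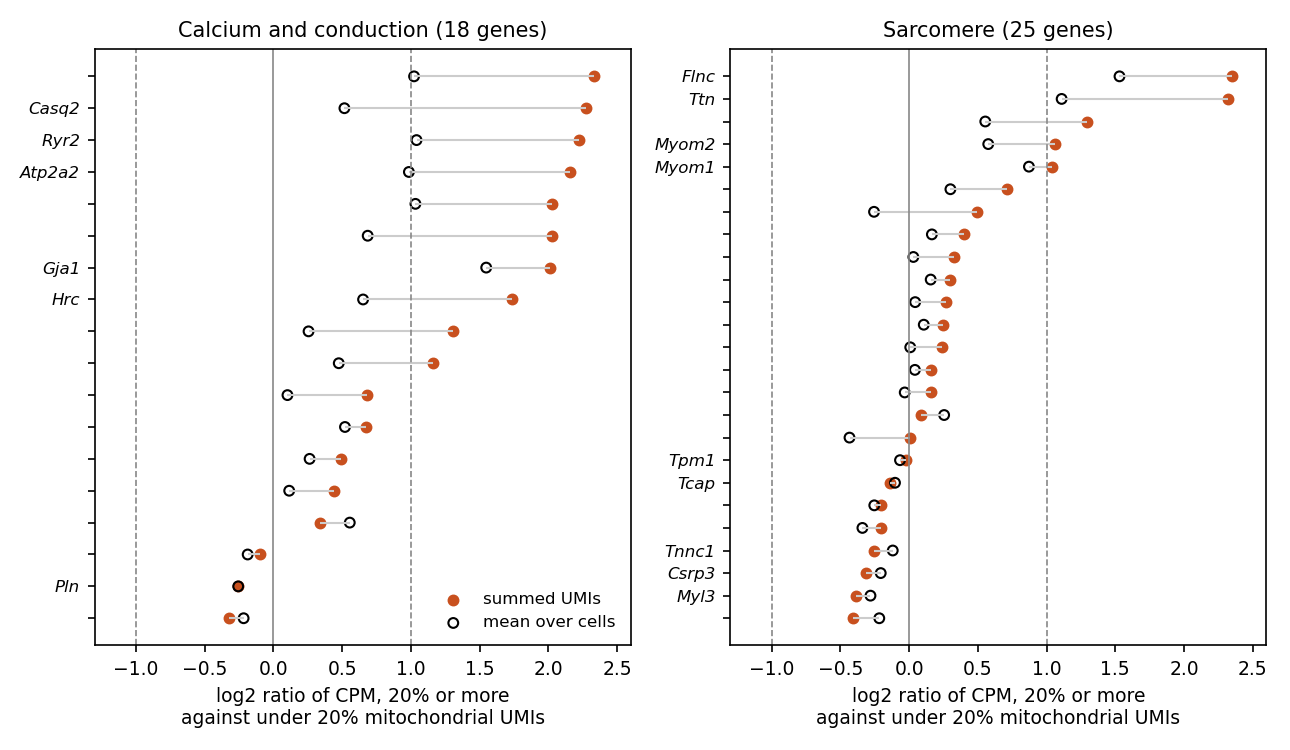
Log2 ratio of the level in cardiomyocytes of 20% or more mitochondrial UMIs to that in cardiomyocytes under 20% (10 CPM added to both), by gene, for calcium handling and conduction and for the sarcomere. Filled points are summed UMIs, open points means over cells, dashed lines mark 2-fold either way, and the genes described in the text carry their names. Ttn, Atp2a2 and Ryr2 lie past 2-fold by sums at 2.32, 2.16 and 2.22 and near it by cells, while Pln and Myl3 lie below 0 by both.

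The sarcomere split along the same line. Of 25 genes, 5 were at least 2-fold higher by sums and 2 by cells, where 4.67% of all counted genes were higher by sums and 1.66% by cells. The list median was 0.24 by sums and 0.03 by cells. Ttn, the giant spring of the sarcomere (chr2:76703980-76982547), stood at 652 CPM under 20% and 3289 above, with 515 and 2990 CPM in library 1 and 1832 and 4650 in library 3. Its ratio was 2.32 on the log2 scale by sums and 1.11 by cells, and its largest cell gave 15.2% of its UMIs in the high class. Flnc, a filamin of the Z-disc, went from 8.29 to 83.2 CPM, with 1.53 by cells. This rested on 14 and 48 UMIs, and 3 cells held 41.7% of those of the high class. Over all cardiomyocytes Flnc was at 27.4 CPM against 12.5 in other cells, which was not called, and fibroblasts had 31.3 and Schwann cells 184 CPM. Myom1 and Myom2, the M-band proteins that hold the thick filaments in register, were higher by 1.04 and 1.06 by sums. By cells Myom1 came to 0.87 and Myom2 to 0.58, neither called, and in library 3 Myom2 was nearly level at 62.3 and 66.0 CPM.

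The abundant filament genes did not move this way. Tpm1, alpha-tropomyosin, stood at 23324 and 22983 CPM, and Myl3 at 11230 and 8568 CPM. The rule genes are given as a description only, since the rule fixed their sum. Within that sum Myh6 stood at 3819 and 8613 CPM, so that its part of the rule-gene UMIs went from 6.29% to 14.5%, while Myl2, the ventricular regulatory light chain, stood at 22661 and 18004 CPM and Tnni3, the inhibitory troponin subunit, at 11232 and 9606. Tnnt2 was nearly level, at 17424 and 16976 CPM.

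Over the first 5 steps of 10 percentage points, the mean over cells of Atp2a2 was 632, 761, 881, 1206 and 3543 CPM, and that of Ttn 536, 649, 828, 953 and 3274 CPM. Ryr2 went less evenly, with 61.3, 82.4, 75.1, 177 and 618 CPM. Myl2 went the other way, with 22630, 21225, 19794, 18399 and 17394 CPM, and Mb lay between 14549 and 11640 CPM. The step from 40 to 50% held 24 cells. Among them were cells of 137, 931, 178, 483 and 106 Malat1 UMIs, which belong to the Malat1-rich cells described below. The cell with 931 was also rich in atrial transcripts and held 0 Myl2 UMIs. The part of such cells in the values of this step was not tested. Above 50% no step held more than 10 cells. These last 5 steps had no such order, with 4122, 4714, 4237, 1581 and 4825 CPM of Atp2a2 and 18777, 13330, 20895, 22931 and 14770 CPM of Myl2.

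**Figure D3:**
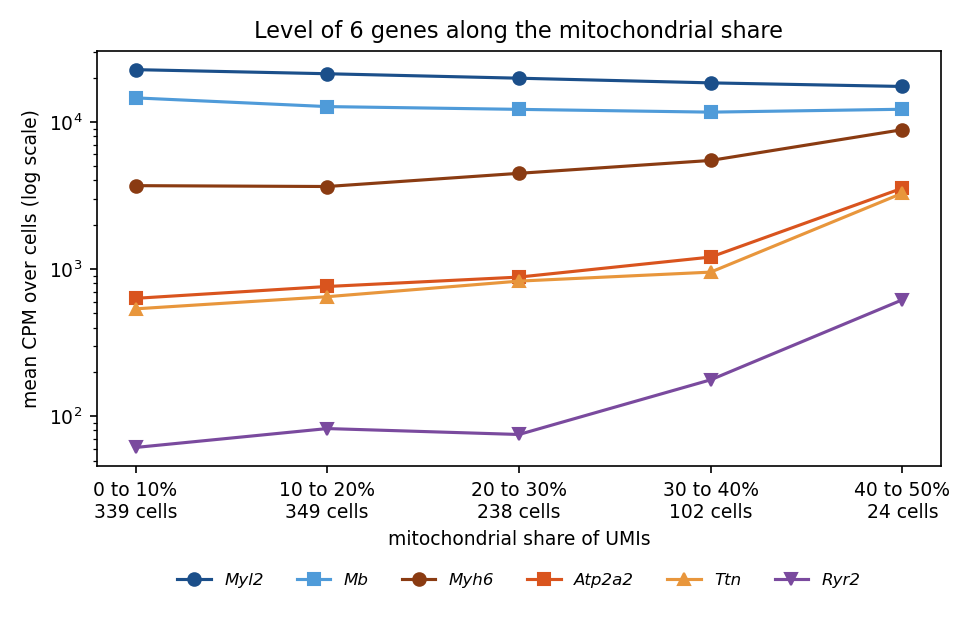
Mean over cells of the level of 6 genes in CPM (vertical axis, log scale) in cardiomyocytes grouped by mitochondrial share in 5 steps of 10 percentage points (horizontal axis). Atp2a2, Ttn, Ryr2 and Myh6 are highest in the step from 40 to 50%, Myl2 is lowest there, and the last step holds 24 cells.

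Nuclear genes for energy supply stood close to the median of all genes or below it. None of 37 complex I genes, 27 genes of complexes II to IV and 17 complex V genes was at least 2-fold higher or lower in the high-mitochondrial class by sums, and the list medians were -0.12, -0.14 and -0.22 on the log2 scale. By cells the medians were -0.12, -0.13 and -0.19. The ATP synthase list stayed below 0 in all 20 settings tried, between -0.38 and -0.13. Atp5b, its catalytic subunit, stood at 2575 and 2721 CPM, and Cox4i1, a cytochrome oxidase subunit, at 3948 and 3967 CPM.

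Fatty acid and creatine genes had a list median of -0.17, and 2 of 31 were at least 2-fold higher by sums, a share near the 4.67% of all genes. By cells 0 were higher and 1 was lower, Cpt2, an enzyme of fatty acid import into mitochondria. The 2 higher by sums were Lpl, which frees fatty acids from lipoproteins (534 and 1489 CPM), and Cd36, which takes them up (164 and 359 CPM). Endothelial cells carry Cd36 too, and it was lower in the cardiomyocytes than in other cells, at 213 against 741 CPM. The abundant members were below 0, with Fabp3 at 8864 and 6417 CPM, Mb at 14672 and 12443 CPM and Slc25a4, the exchanger of ADP and ATP across the inner mitochondrial membrane, at 9956 and 7400 CPM. Of glycolysis 2 of 18 were called by sums and 1 by cells, with list medians of -0.10 and -0.08. Of all counted genes 1.66% were higher by cells. The 2 called by sums were Slc2a4, the insulin-sensitive glucose transporter, at 17.8 and 84.9 CPM, and Hk1, a hexokinase, at 28.4 and 88.4 CPM.

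The mitochondrial transcripts stood in similar proportions in both classes. mt-Co3 made up 20.9% of mitochondrial UMIs under 20% and 19.4% above, mt-Atp6 16.2% and 16.8%, mt-Co2 13.4% and 13.9% and mt-Cytb 11.5% and 11.7%. Of all UMIs of the class, mitochondrial UMIs came to 8.45% in the low class and 43.6% in the high class.

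Stress genes were called by sums but not by cells. Of 18 counted genes of the stress and fetal program, 4 were at least 2-fold higher by sums and 0 by cells, where 4.67% of all genes were higher by sums and 1.66% by cells. The 4 were Nppa, the atrial natriuretic peptide, Myh7, the slow myosin heavy chain of the fetal and stressed heart, Xirp2, an actin-binding protein of the cell junction, and Cyr61, a secreted matrix protein. A single cell held 66.8% of the Nppa UMIs of the high class, and 38.4% of those of Myh7 lay in 1 cell. By cells Nppa came to -0.11 and Myh7 to 0.56. Heat shock genes (18 counted, median 0.07), immediate early genes (21, median 0.34) and genes of cell death and mitophagy (12, median -0.11) had 0 calls in either direction by sums. Interferon and MHC class I genes had 1 call of 22 by sums, Tapbp, which loads peptides on class I, at 32.6 and 79.7 CPM, and 1 by cells, the interferon factor Irf1, and a single call of 22 is near the share of all genes by sums.

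Malat1, a long RNA that stays in the nucleus (chr19:5795690-5802672), marked a second difference within the cardiomyocytes. At a depth of 1000 to 10000 UMIs, 653 cells that met the rule held a median of 4 Malat1 UMIs (quartiles 2 to 5), and 3.06% of them held 20 or more. Other cells of that depth held a median of 92 (50 to 156) under 20% mitochondrial UMIs and 81 (34 to 161) at 20% or more, with 20 or more UMIs in 87.0% and 83.0%. Within this range the median depth was 1807 UMIs in cells that met the rule, 4203 in other cells under 20% and 1971 in those at 20% or more. By library, the median was 4, 3, 4 and 5 UMIs in the 544, 17, 86 and 6 cells of this depth that met the rule. It was 129, 67, 115 and 88 in other cells under 20%, which were deeper in each library. In other cells at 20% or more it lay between 75 and 100. The low count was thus found in all 4 libraries, beside counts of the usual height in the other cells of the same library.

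The Malat1 count of most cardiomyocytes hardly grew with depth. Its median was 3 UMIs under 1000 UMIs (410 cells), 3 at 1000 to 2000 (366 cells), 4 at 2000 to 5000 (220 cells) and 4 at 5000 to 10000 (67 cells), then 158 in the 22 cells over 10000. Over the same steps the median of other cells went 5, 22, 84, 137 and 260. The histogram of the cardiomyocytes peaked at 3 UMIs with 216 cells, ended with 1 cell at 14, was empty from 15 to 19, and held 39 cells at 20 or more. A cut at 20 UMIs was chosen after this gap was seen.

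**Figure D4:**
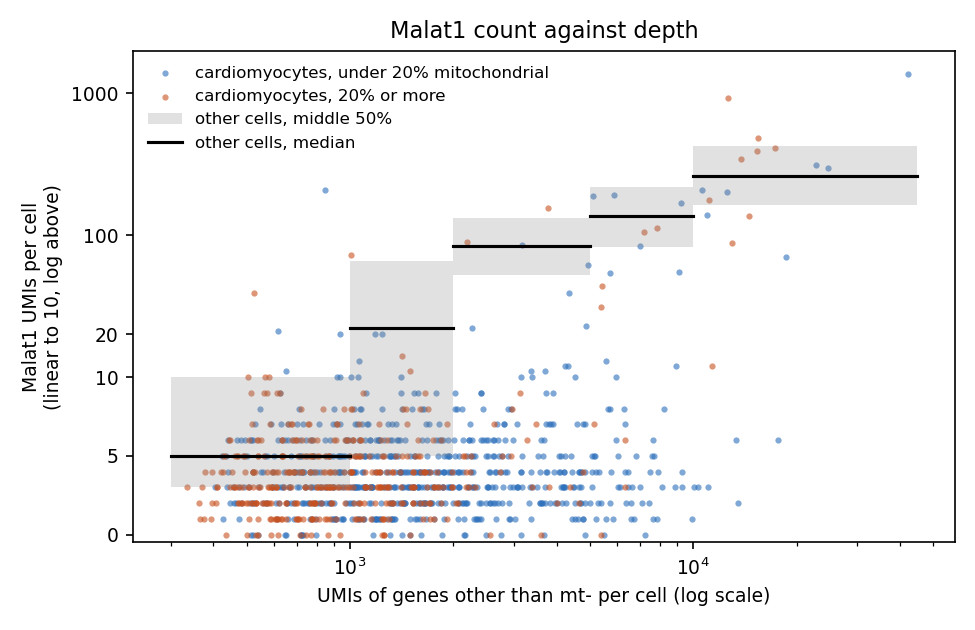
Malat1 UMIs per cell (vertical axis) against UMIs of nuclear-genome genes per cell (horizontal axis) for cells that met the cardiomyocyte rule, blue under 20% mitochondrial UMIs and orange at 20% or more, with the median (black line) and middle 50% (grey band) of other cells by depth. Most points lie in a flat band with a median of 3 to 4 UMIs, and 39 points stand at 20 or more.

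The 39 cells differed from the rest in the genes described above. They held a median of 7004 UMIs, and 41.0% of them had 20% or more mitochondrial UMIs, against 36.4% of the 1046 other cells at a median of 1211.5 UMIs. Among cells of at least 2000 UMIs the shares were 43.8% of 32 and 11.2% of 277 cells, with medians of 9144 and 3393 UMIs. Set against these 277 cells, the levels of the 39 were 4505 against 718 CPM for Atp2a2, 692 against 74.0 for Ryr2, 5414 against 472 for Ttn and 10367 against 4086 for Myh6. Several abundant transcripts were lower in them, with Myl2 at 14202 against 24460 CPM, Mb at 11006 against 16033, Pln at 6295 against 8909 and Fabp3 at 5620 against 9587. Atp2a2, Ryr2, Ttn and Myh6 were thus higher in these 39 cells as they were at a high mitochondrial share.

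Of the 39 cells, 35 were in library 1 and 4 in library 3, and 8 of the 12 marked doublets were among them. Endothelial markers made up 0.345% of their UMIs against 0.0835% in the 277 cells, macrophage markers 0.0858% against 0.0272% and fibroblast markers 0.0622% against 0.136%, and the part of doublets in these values was not tested. Without the 39 cells, the high-mitochondrial class kept 381 cells and the low class 665, and the log2 ratio by sums was 0.76 for Atp2a2 (665 and 1133 CPM), 0.73 for Ttn (489 and 817 CPM), 1.02 for Ryr2 (61.5 and 135 CPM), 0.50 for Myh6 and 1.32 for Gja1. The direction of these genes was the same without the 39 cells, and Atp2a2 and Ttn then lay under 2-fold. The calcium list median went from 1.23 to 0.34 and the count of all genes at least 2-fold higher from 203 to 50.

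Cells rich in atrial transcripts were a small part. In all, 9 cells held 10 or more UMIs over Myl7, Myl4 (the atrial essential light chain) and Sln (sarcolipin, the pump regulator of atria), a cut chosen after the counts were seen, and these 9 held 97.6% of all such UMIs. A further 34 cells held 1 to 9 and 1042 cells (96.0%) held 0, while 99.2% of all cells that met the rule held a Myl2 UMI. In the deepest of the 9, a cell of library 1 with 13781 UMIs and 37.8% mitochondrial UMIs, there were 386 Myl7, 231 Myl4 and 83 Sln UMIs and 0 Myl2 UMIs, which allows up to 218 CPM of Myl2. A cell of library 1 with 6033 UMIs and 8.90% mitochondrial UMIs held 209, 134 and 119 and a single Myl2 UMI. A cell of library 3 with 12646 UMIs and 47.3% held 153, 156 and 77 and 0 Myl2 UMIs, which allows up to 237 CPM. The other 6 cells, of 365 to 2170 UMIs, held 13 to 72 UMIs over the 3 genes, and 4 of them held Myl2 too. The clearest against an atrial name were a cell with 14 Myl2 UMIs (14099 CPM) beside 19 Myl7 UMIs, and a cell of library 3 with 48 Myl4 UMIs but 1 Myl7, 0 Sln and 3 Myl2 UMIs.

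A few deep cells carried the largest ratios. The rule for named genes, called genes of 200 or more UMIs with the largest ratio by sums, put Pam first at 3.50 on the log2 scale (40.9 and 567 CPM), followed by Clu at 3.44 (107 and 1255 CPM), Gpx3 at 3.32 (89.5 and 983 CPM), Myl4 at 2.88 and Myl7 at 2.81. Pam processes peptide hormones, Clu is a secreted chaperone and Gpx3 a secreted peroxidase. By cells the ratios of Pam, Clu, Gpx3 and Myl4 were 1.19, 1.21, 1.12 and 1.35. Without the 39 cells of 20 or more Malat1 UMIs, the ratios by sums were 0.58, 0.71, 0.76 and 0.90, all under 2-fold, and Myl7 had the opposite sign at -0.22. For Pam, Myl4 and Myl7 the largest cell was 1 of the 9, with 30.6%, 47.1% and 64.7% of the high-class UMIs, and the high cells among the 9 together held 57.5%, 98.6% and 99.0%. For Clu and Gpx3 it was another cell, of library 3, with 14516 UMIs, 41.6% mitochondrial UMIs, 65 Myl2 UMIs and 1 atrial UMI. It held 322 Clu and 336 Gpx3 UMIs, or 44.5% and 59.3% of those of the high class, and was also the largest cell for Nppa (811 UMIs) and Myh7 (319 UMIs). Without the 9 cells of 10 or more atrial UMIs, 155 genes were at least 2-fold higher in the high class. The atrial list median of 1.93 had the opposite sign without cells of over 10000 UMIs, at -0.13. The ventricular list had a median of -0.27 by sums and -0.28 by cells. Without library 1 the medians by sums were 6.17 for the atrial list and -0.91 for the ventricular list. The only cells of 10 or more atrial UMIs then left were in the high class of library 3. These were a cell of 153 Myl7 and 156 Myl4 UMIs and another of 1 and 48. The low class of library 3 held 0 Myl7 and 3 Myl4 UMIs.

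Levels differed between libraries among cells that met the rule, and with no map to grafts these differences are values only. In libraries 1 to 4, Myl2 stood at 22525, 21595, 15742 and 2265 CPM, Actc1 at 5350.5, 1508, 8815 and 66.6 CPM and Pln at 8428, 1914, 5367 and 1466 CPM. Library 4 was lowest for all 3, and library 2 was the next lowest for Actc1 and Pln. Atp2a2 was 1305, 232, 1945 and 66.6 CPM, so libraries 1 and 3 were the high ones.

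Stress genes differed in level between libraries. Under and over 20% mitochondrial UMIs, the stress and fetal program summed to 1.55% and 3.07% of nuclear-genome UMIs in library 3 and to 0.447% and 0.566% in library 1. The sum of the high class in library 3 held 1 cell with 811 Nppa and 319 Myh7 UMIs. The median cells of the classes of that library were close, at 1312 and 1263 CPM for Nppa and 5613 and 5698 CPM for Ankrd1. The upper quartile of Nppa was 6620 CPM in the low class and 2938 in the high class, and that of Ankrd1 10698 and 9281. Over both classes, the stress and fetal program summed to 0.477%, 3.05%, 2.09% and 10.4% of UMIs in libraries 1 to 4, against 0.365%, 1.17%, 0.358% and 0.464% in the other cells of the same library. Ankrd1, a titin-associated protein induced by stretch, stood at 2367, 11271, 6703 and 85398 CPM, Acta1, skeletal alpha-actin of the fetal heart, at 35.3, 19.3, 1610 and 5263 CPM and Xirp2 at 183, 96.7, 2042 and 7661 CPM. Library 4 was highest for all 3, and library 3 exceeded library 1. Nppa was 222, 96.7, 5839 and 2531 CPM, and the cell that held most of the Nppa UMIs of the high class was in library 3. Among cells under 20% mitochondrial UMIs, the 5 genes highest in library 3 against the other libraries were Nppa, Acta1, Xirp2, Selenop and Apoe, and those in library 4 were Acta1, Ankrd1, Xirp2, Des and Calr. Des, desmin, reached 46163 CPM in library 4, against 2252, 1740 and 7392 CPM.

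Library 2 stood out by other genes. Mt1, a metallothionein that binds zinc and copper, was 954, 14229, 1148 and 666 CPM in libraries 1 to 4, Cryab, a small heat shock protein of the sarcomere, 4299, 13630, 5528 and 10458 CPM and Hspb1, a related chaperone, 524, 3441, 847 and 666 CPM. Pdk4, which turns pyruvate away from the citrate cycle, was 267 and 1295 CPM in libraries 1 and 2 and 141 in library 3. With 21 cells and 1 in the high class, library 2 held 51725 UMIs in these cells, and a gene at 0 there may lie as high as 58.0 CPM. Myh7 was such a gene, against 440 and 1607 CPM in libraries 1 and 3.

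**Figure D5:**
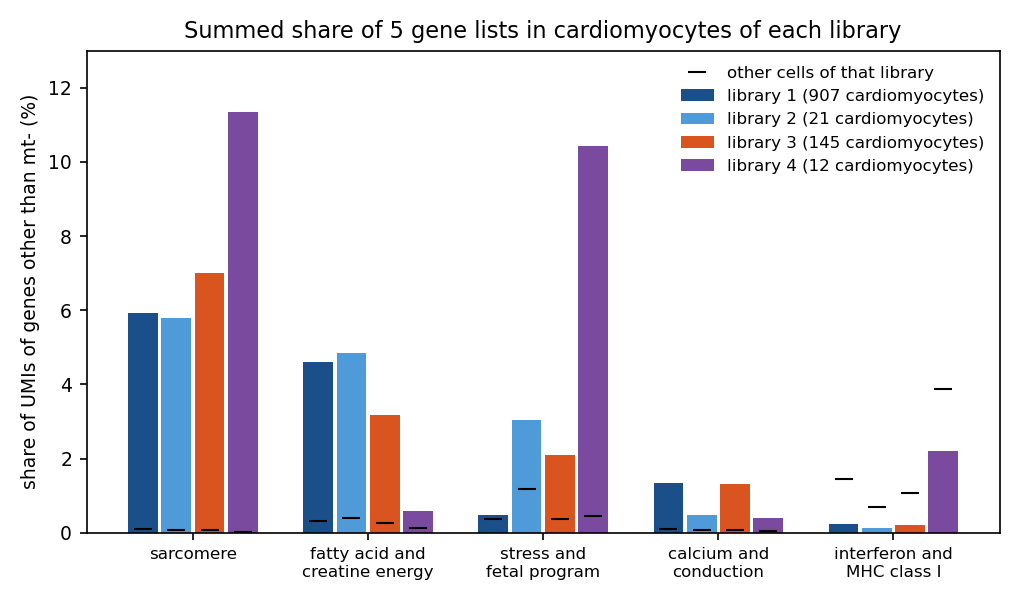
Share of nuclear-genome UMIs in percent (vertical axis) of 5 gene lists in the cells that met the cardiomyocyte rule, as bars by library, with black dashes for the other cells under 20% mitochondrial UMIs of the same library. The stress and fetal list reaches 3.05% and 10.4% in libraries 2 and 4, which hold 21 and 12 such cells.

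Transcripts of other cells were present at low levels. Fibroblast markers summed to 0.174% of UMIs under 20% mitochondrial UMIs and 0.322% above, against 4.72% in fibroblasts. Of 8 counted markers 1 was called by sums, Dcn, decorin, at 376 and 771 CPM, and 0 by cells. Of all counted genes 4.67% were higher by sums and 1.66% by cells. All 8 lay above 0 by both, with list medians of 0.81 by sums and 0.69 by cells. Thinned to 500 UMIs, a Dcn UMI was found in 26.0% of low and 37.8% of high cells, and in 15.2% of 1000 granulocytes and 11.0% of 1000 endothelial cells, which should lack it. Endothelial markers summed to 0.179% and 0.192%, against 2.72% in endothelial cells, with 0 of 9 called and Fabp4 the most abundant. Of the macrophage list, led by Lyz2, 0.0501% of UMIs were found in the low and 0.0504% in the high class, and T and NK markers came to 0.00249% and 0.00225%. Mural markers, led by Acta2, came to 0.0417% and 0.0664%, B cell markers to 0.0032% and 0.00503%, Schwann cell markers to 0.00243% and 0.00659% and granulocyte markers to 0.0255% and 0.0192%. Fibroblast, mural, B cell and Schwann cell markers were thus higher in the high class by over 1.5 times, the last pair with 1 counted gene each, and the part of these transcripts in the other differences was not tested. By cells, 1 of 7 counted mural markers and the 1 counted gene of the B cell and of the Schwann cell list were called higher. By sums 0 of these were called. Without the cells in which another type's markers took 2% or more, 1079 cells were left and 204 genes were higher in the high class.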

How the data were processed

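The authors deposited counts of UMIs per gene and cell as a merged matrix of 30905 genes and 53824 cells, without normalization, for which reads had been aligned to mm10 by Cell Ranger 3.0.0 and counted on Ensembl 92 genes. Their analysis kept cells with over 200 genes and under 20% mitochondrial UMIs. Here the mitochondrial limit was dropped and every cell that met the rule was kept. No library number was paired with a graft, so no groups were compared.

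CPM is a gene's summed UMIs per 1000000 UMIs of genes outside the mitochondrial genome. Intervals are exact, Poisson for CPM and Clopper-Pearson for shares, at 95%, and a count of 0 allows up to 3 counts. Log2 ratios had 10 CPM added to both sides. A gene was called when it differed at least 2-fold in the pooled counts and in the same direction in each library with at least 20 cells in both mitochondrial classes, which were libraries 1 and 3. Genes with at least 50 UMIs over the cardiomyocytes were counted. The named genes were those of 31 gene lists, the 10 called genes of at least 200 UMIs with the largest ratio in each direction between the mitochondrial classes (0 were lower), the 15 highest against other cells and the 5 highest in each library. Genes described outside these were chosen after their values were seen. Values of some genes on the lists are not reported here. Other cells under 20% mitochondrial UMIs were put in 8 types by the marker list with the most UMIs, at least 5. Doublets were simulated in each library from 2000 variable genes, 10 components and 50 neighbours, and the top 5% were marked. Cells were thinned with the seed 20.

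The rule, the cardiomyocytes and the gene lists were chosen with earlier results of these data known. Gene positions are those of GENCODE on GRCm38. The ratio by summed UMIs and the Poisson intervals were tried on simulated cells, all drawn from a single profile in each mitochondrial class. The simulation did not cover differences between cells, the mean over cells, the thinning, the doublets or the agreement of libraries. Alternatives were other limits on rule genes, Tnnt2, genes, depth and mitochondrial UMIs, other added values and filters, other weighting of cells and libraries, and leaving out each library. The versions were scipy 1.17.1, scikit-learn 1.9.0, matplotlib 3.10.9, pandas 2.3.3, numpy 2.4.6 and Python 3.11.15.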

Additional observations from a re-analysis of the deposited data

How the results depend on the processing

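No paired analysis was possible because the replicate numbers of the grafts cannot be matched to libraries and no result comes from a test. Paired by library instead, within libraries 1 and 3, the mean ratio between the mitochondrial classes gave 233 higher and 49 lower genes. Of 85 values under alternatives, 50 stayed close to the reported value and 35 moved, where a count was close within 1.5 times and a share within its counting interval. The rule set the number of cells, which was 421 with 6% or more rule genes, and the share at 20% or more mitochondrial UMIs, which was 32.1% with 6% or more rule genes, 28.5% with over 500 genes, 22.3% with the rule genes taken over all UMIs, 68.8% with a limit of 10% and 5.25% with one of 40%. Leaving out each library in turn gave 178 to 1073 cells and 34.9% to 40.5%.

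The counts of genes between the mitochondrial classes, 203 higher and 2 lower, were 314 and 28 with 1 CPM added, 63 and 0 with 50 CPM, 336 and 4 with at least 20 UMIs, 55 and 0 with at least 200 UMIs, and 72 and 21 by the mean over cells. Thinned to 500 UMIs, 17 of 1346 genes counted were higher. Lower genes numbered 18 in cells of at least 1000 UMIs, 5 when centred on the median gene and 17 with 6% or more rule genes. Alternatives chosen after seeing the data gave 48 and 5 without cells of over 10000 UMIs and 50 and 4 without cells of 20 or more Malat1 UMIs, and the atrial list median had the opposite sign in these, at -0.13 and -0.058. Without each library in turn, 64 to 203 were higher and 3 to 31 lower. Against other cells, 569 were higher and 584 lower with 50 CPM added, and 421 to 1030 higher and 130 to 983 lower without each library. The lowest of these ranges for higher genes and for cells, and the highest for lower genes between the classes, were without library 1. The cause of these changes was not tested.

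The calcium list median stayed above 0 in all 20 settings, from 0.34 to 1.5, and the fatty acid and creatine list median below 0, from -0.62 to -0.06. The depth of the cardiomyocytes limits genes of low level, and libraries 2 and 4 hold too few cells for a ratio between the classes.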

Other observations

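Red cell transcripts in the cells that met the rule followed the other cells of each library. Markers of red cells summed to 0.147%, 0.0503%, 0.0194% and 0.0133% of UMIs in libraries 1 to 4, against 2.57%, 0.437%, 0.401% and 0.154% in the other cells, with library 1 highest in both. Hbb-bs, Hba-a1 and Hba-a2, the globins, were 3 of the 5 genes highest in library 1 against the other libraries, beside Myl7 and Lrrc2. Of 234 Myl7 UMIs in the cells of library 1 under 20% mitochondrial UMIs, 209 lay in 1 cell. Granulocyte markers were highest in library 2 in both kinds of cell, at 0.497% and 2.62%, and macrophage markers in library 4, at 0.326% and 1.12%.

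Interferon and MHC class I genes summed to 0.239%, 0.141%, 0.207% and 2.22% of UMIs in cells of libraries 1 to 4 that met the rule, and to 1.45%, 0.703%, 1.07% and 3.88% in the other cells. The library with the highest sum in these cells, library 4, was also the highest in the others. MHC class II genes came to 0.0441%, 0.0116%, 0.0907% and 0.580% and, in the other cells, to 0.424%, 0.0481%, 0.333% and 2.42%. The source of these transcripts in the 12 cells of library 4 was not tested.

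Of 20 cell cycle genes, 2 reached the 50 UMIs needed to be counted, and the list made up 0.0157% of the UMIs of cardiomyocytes and 0.0504% of those of other cells. In libraries 1 to 4 it made up 0.0152%, 0.00967%, 0.01875% and 0.0333% in cells that met the rule. In the other cells of the same library it was 0.0268%, 0.0214%, 0.0547% and 0.0799%. Of 12 cardiac transcription factors 11 were counted. Nkx2-5, which specifies cardiac muscle, stood at 124 CPM under 20% mitochondrial UMIs and 104 above, against 0.508 in other cells. Between the mitochondrial classes 1 of the 11 was called higher by sums, Mef2d, at 54.5 and 120 CPM, and 0 by cells. Of all counted genes 4.67% were higher by sums and 1.66% by cells. The list median was 0.36 by sums and -0.04 by cells. Cardiomyocytes of the conduction system could not be read, since 1 gene of 9 on that list was counted.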
